A study of Mus musculus with 6 samples.

Results

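The genes described here belong to the interferon response and to the sensing of foreign RNA. They are 45 mouse genes chosen by symbol, 5 sensors with their adaptor, 12 receptors and transcription factors, and 28 effectors. Of these, 44 had 1 row each among the 22432 genes of the authors' deposited table, matched on the Ensembl identifier to GENCODE M21 symbols, and Ifitm1 was not analysed here. Total RNA was sequenced from cultures of germline stem cells of male mice, which renew themselves and give rise to sperm. Cells had been sorted into a CDH1+/THY1+ and a CDH1-/THY1+ population, with 3 samples each. CDH1, or E-cadherin, is an adhesion protein, and THY1 is a surface protein by which such stem cells are often enriched. Each population came from the cultures RP7 (8 weeks of age), RP5 (19 days) and WT1 (5 weeks), at passage 6 to 8, and the strain was given as OCT4/GFP; Dox-OCT4 for both RP7 and RP5, and as C57BL/6 for WT1. All 6 samples had been grown on DR4 fibroblast feeders with serum, GDNF and FGF, and the labels name no interferon treatment. THY1 is also carried by many fibroblasts, and how feeder cells were kept out of the sort is not given in the sources used here.

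Interferons are secreted proteins that warn cells of infection. Type I interferon binds the receptor chains IFNAR1 and IFNAR2, and the kinases JAK1 and TYK2 then activate a complex with STAT2 and IRF9, which binds a promoter element called the ISRE. Cytosolic RNA helicases such as RIG-I and MDA5 detect viral RNA and signal through MAVS to IRF3 and IRF7, which switch on interferon genes. Fibroblasts respond strongly to interferon, and some interferon-inducible proteins, the IFITM family among them, are also made by germ cells without infection.

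The authors' deposited table holds 1 comparison and no value per library, so the spread within each population and the number of libraries behind each direction are unknown. A value written with ± is a log2 fold change with the standard error of the authors' test, positive where the RNA was more abundant in CDH1+/THY1+ cells. That direction rests on the table's name, and Cdh1 itself was not analysed here. Levels in each population are normalised counts implied by the mean over all 6 libraries and the fold change, and are therefore estimates with no error of their own. A gene was called higher or lower when its adjusted p-value, from the authors' DESeq2 Wald test over all genes, was under 0.05. The rows analysed end at a log2 fold change of 2.14 on the higher side, and 532 further tested genes were not analysed here.

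Interferon response and RNA sensing genes moved in both directions. In CDH1+/THY1+ cells the RNA sensor gene Ddx58, the transcription factor genes Irf7 and Stat2, and effector genes led by Bst2, Gbp7, Ifi44 and Oas1a were higher. Irf8, Irf1, Irf5, Parp12 and Oasl1 were lower. By the adjusted p-values of the authors' deposited table, 11 of the 44 genes were higher, 5 were lower and 28 were not called. The share called was 36.4%, against 33.5% of all 19211 genes with an adjusted p-value (17.1% higher and 16.4% lower), so the share lies near that of all genes. Over all 19743 tests behind the adjusted p-values, 6970 (35.3%) had passed the threshold. The 532 tested genes that were not analysed here were therefore all called, in a direction that is unknown, and the shares given for all genes leave them out. The median log2 fold change of the 44 genes was 0.24, with quartiles of -0.15 and 0.78, and that of all tested genes was 0.01, in the authors' deposited table. By size, 6 genes were called and higher by at least 2-fold and 2 were lower by as much, when 7.47% and 6.54% of all genes were.

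**Figure D1:**
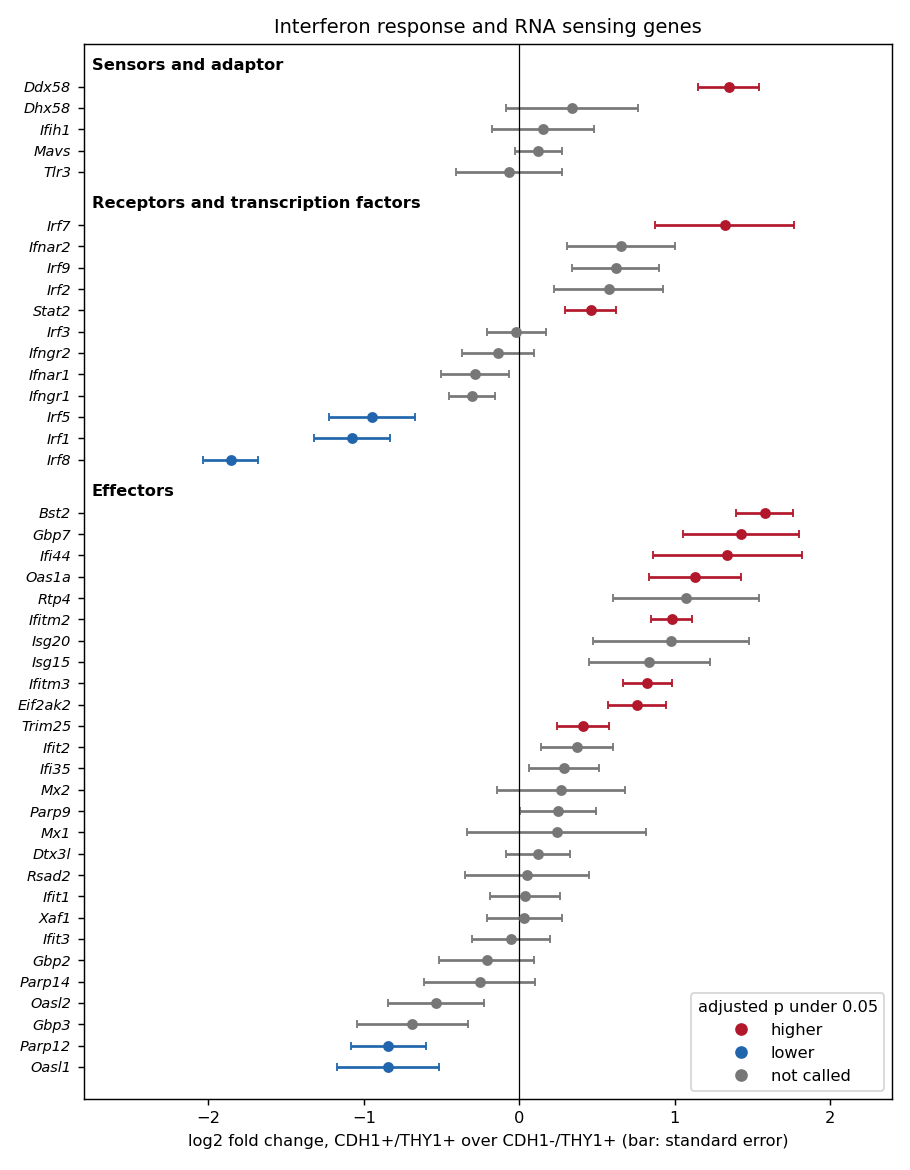
Log2 fold change of 44 genes between CDH1+/THY1+ and CDH1-/THY1+ cells, grouped by role, with points in colour for genes called at an adjusted p under 0.05 and bars for 1 standard error of the authors' test. Values run from -1.86 for Irf8 to 1.58 for Bst2, and the 3 called lower transcription factor genes stand apart from the other genes of their group.

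Markers of other cells moved in the same comparison. Of 22 fibroblast markers 8 were called, 36.4% against 33.5% of all genes. All 22 had a log2 fold change above 0 in the authors' deposited table, and the median was 0.77. Their summed implied level was 271946 normalised counts in CDH1-/THY1+ and 449429 in CDH1+/THY1+ cells. The 3 most abundant, Col3a1, Col1a2 and Col1a1, had 0.69 ± 0.33, 1.19 ± 0.59 and 0.81 ± 0.49 in the authors' deposited table, none of them called. Of 15 markers of undifferentiated spermatogonia, 10 were called lower and 1 higher, 73.3% in all. Their median was -0.99 in the authors' deposited table, and their summed levels were 55172 and 29039. The 1 called higher was Pou5f1, at 1.24 ± 0.36 in the authors' deposited table. It encodes OCT4, which the strain given for RP7 and RP5 names, and whether transgene RNA entered its count was not tested. Dazl and Ddx4, which encode RNA-binding proteins of germ cells, were lower, at -1.53 ± 0.21 and -1.73 ± 0.17, and Lin28a was not called at -0.29 ± 0.32, in the authors' deposited table. Of 16 leukocyte markers, 8 had a row, and their summed level was low, 488 in CDH1-/THY1+ and 572 in CDH1+/THY1+ cells, with 3 called higher and 1 lower. The most abundant of them, Coro1a, Cd68 and Mrc1, had -1.37 ± 0.29, 1.65 ± 0.33 and 1.21 ± 0.44 in the authors' deposited table, and the other 8 were not analysed here. Of 10 Sertoli cell markers 8 had a row and 7 an adjusted p-value, with 2 called higher and 0 lower (28.6%). Of 9 endothelial markers 7 had a row and 6 an adjusted p-value, with 2 called higher and 1 lower (50%). Both lists were scarce, with median mean counts of 24.4 and 36.6. The part of these changes in the results that follow was not tested, and in such bulk samples fewer cells of a type cannot be told apart from less RNA per cell.

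The promoters of these genes were searched for the ISRE, since it is the element through which STAT2 and IRF9 act. RefSeq windows from 250 bases before to 50 after each gene's start (GRCm38.p6) were found for 39 of the 45 genes. Dhx58, Mx1, Mx2, Parp9, Parp14 and Rtp4 were not matched. The ISRE-type motif searched was GAAA, then 2 bases of any kind, then GAAA, on either strand, with overlapping matches allowed. It occurred in 16 of the 39 genes (41%) and in 3.99% of all 27025 genes with such windows. Of the 11 genes called higher, 8 held the motif. Of the 5 called lower, 0 held it, and of the 22 uncalled genes with a window 8 did. By role, 12 of 23 effectors held it, 2 of 12 receptors and transcription factors, and 2 of 4 sensors. Irf1, Irf5 and Irf8, called lower, belong to the second of these groups, so motif and role were not told apart. In Ddx58, Ifitm3 and Eif2ak2, which were called higher, and in Ifih1, which was not called, no match lay wholly before the start. The median log2 fold change was 0.67 for the 16 genes with the motif and 0.01 for the 22 without it that had a row. The motif of gamma-activated sites, TTCNNNGAA, was present in 33.3% of the genes against 9.55% of all genes, in 5 of the 11 called higher and in 2 of the 5 called lower. Its split of medians was much the same, 0.65 for the 13 genes with it and 0.04 for the 25 without. All 5 genes called higher with it, Bst2, Ifitm3, Oas1a, Gbp7 and Eif2ak2, also held the ISRE-type motif. The 2 splits therefore share genes, and whether either is particular to its motif was not tested. Matches are descriptions of the letters, not of bound sites, and a window without a match says nothing about the factor.

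Stretches of these windows before the start site are shown for the 5 genes called higher with a match wholly before it. Then follow 3 genes that were not called, to set the element beside both outcomes. Capitals mark the ISRE letters or their reverse complement, and each sequence runs 5′ to 3′ on the strand of its gene.
Bst2 (chr8:71537568-71537627, minus strand): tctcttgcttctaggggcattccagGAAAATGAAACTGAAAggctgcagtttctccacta
Oas1a (chr5:120907526-120907570, minus strand): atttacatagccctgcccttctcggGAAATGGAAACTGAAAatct
Gbp7 (chr3:142530258-142530317, plus strand): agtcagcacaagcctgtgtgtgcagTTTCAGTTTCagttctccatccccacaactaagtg
Ifitm2 (chr7:140955973-140956032, minus strand): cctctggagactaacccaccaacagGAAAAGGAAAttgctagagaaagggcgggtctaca
Stat2 (chr10:128270251-128270310, plus strand): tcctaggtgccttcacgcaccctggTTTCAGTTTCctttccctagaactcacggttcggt
Ifit1 (chr19:34640760-34640819, plus strand): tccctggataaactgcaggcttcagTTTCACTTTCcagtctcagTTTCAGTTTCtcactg
Isg15 (chr4:156200862-156200921, minus strand): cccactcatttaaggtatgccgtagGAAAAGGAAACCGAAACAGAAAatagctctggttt
Gbp3 (chr3:142559974-142560033, plus strand): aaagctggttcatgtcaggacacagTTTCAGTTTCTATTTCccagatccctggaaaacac
The motif is thus present in genes called higher and in genes that were not called, including Gbp7 and Gbp3, which are neighbours on chromosome 3.

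**Figure D2:**
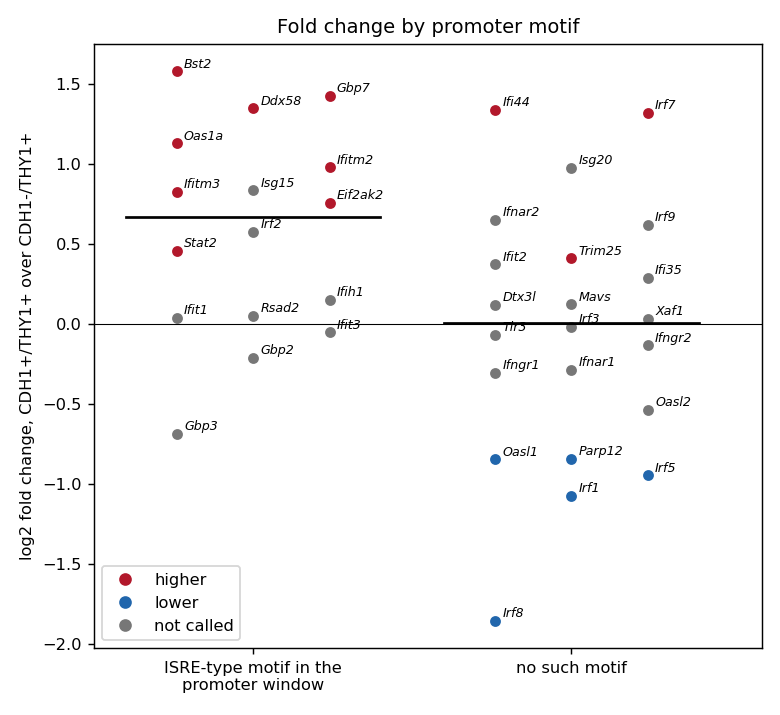
Log2 fold change of the 38 genes with a row and a promoter window, split by whether the window holds the ISRE-type motif, with lines at the medians of 0.67 and 0.01. The 5 genes called lower all lie in the group without the motif, and each group holds genes called higher and genes not called.

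Of the 5 sensor and adaptor genes 1 was called, or 20%, against 33.5% of all genes. It was Ddx58, which encodes RIG-I, the helicase that recognises RNA ends of viruses. Its implied level was 393 normalised counts in CDH1-/THY1+ and 1000 in CDH1+/THY1+ cells, a log2 fold change of 1.35 ± 0.20 in the authors' deposited table (adjusted p = 2.02e-10). This is a 2.55-fold higher level, with a 95% interval of 1.95 to 3.32. Ifih1, which encodes the sister helicase MDA5 for long double-stranded RNA, had levels of 285 and 317 and a value of 0.15 ± 0.33 in the authors' deposited table (adjusted p = 0.769). Dhx58, the regulatory helicase LGP2, had 0.34 ± 0.42 in the authors' deposited table (adjusted p = 0.580). Mavs, the mitochondrial adaptor of RIG-I and MDA5, had 0.12 ± 0.15 in the authors' deposited table, with a 95% interval of the fold from 0.885 to 1.34. Its standard error was among the smallest for its abundance. The endosomal sensor gene Tlr3 had -0.07 ± 0.34 in the authors' deposited table. Whether Ddx58 differed from Ifih1 in its change was not tested, because no value per library allows it.

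Of the 4 receptor chain genes 0 were called by the DESeq2 test, when 33.5% of all genes were. By that test 1 of the 4, Ifngr1, had an unadjusted p under 0.05 (p = 0.0380 in the authors' deposited table). Ifnar1, the signalling chain for type I interferon, had levels of 1860 normalised counts in CDH1-/THY1+ and 1526 in CDH1+/THY1+ cells, with -0.29 ± 0.22 in the authors' deposited table. Ifnar2, the binding chain, had 230.5 and 362, and 0.65 ± 0.35 in the authors' deposited table (adjusted p = 0.134). The interferon gamma receptor genes Ifngr1 and Ifngr2 had -0.31 ± 0.15 (adjusted p = 0.0931) and -0.13 ± 0.23 in the authors' deposited table. Ifnar2, Ifnar1 and Ifngr2 lie in that order on chromosome 16 with distances of 79.6 and 39.6 kilobases.

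Transcription factors parted in direction. Irf8, a factor of myeloid development, showed the lowest value of all 44 genes. Its implied level was 712 in CDH1-/THY1+ and 197 in CDH1+/THY1+ cells, a log2 fold change of -1.86 ± 0.18 in the authors' deposited table (adjusted p = 2.72e-23), or 3.62-fold lower. Irf1, a factor strongly induced by interferon gamma, fell from 3108 to 1476, or by 1.07 on the log2 scale with a standard error of 0.24 (adjusted p = 8.12e-05) in the authors' deposited table. Irf5, which acts downstream of Toll-like receptors, had 128 and 66.5, and -0.95 ± 0.28 in the authors' deposited table (adjusted p = 0.00285). Exons of Irf5 share 14.1% of their bases with exons of Tnpo3 on the opposite strand, and whether the counting used strand is not given in the sources used here.

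In the other direction, Irf7, the amplifier of type I interferon production, had levels of 67.3 and 168 and a value of 1.32 ± 0.45 in the authors' deposited table (adjusted p = 0.0125). Stat2, a partner in the complex that binds the ISRE, had 579 and 795, and 0.46 ± 0.16 (adjusted p = 0.0191) in the authors' deposited table. Both calls ended under the Benjamini-Yekutieli adjustment, which allows for dependence between genes, with adjusted p of 0.167 for Irf7 and 0.253 for Stat2. Irf9, the DNA-binding partner of STAT2, stood at 0.62 ± 0.28 and was not called (adjusted p = 0.0697) in the authors' deposited table. Irf3, the factor held ready in unstimulated cells, had levels of 629 and 621 and -0.02 ± 0.19 in the authors' deposited table. Irf2, an antagonist of Irf1, was scarce, with a mean count of 46.0 and 0.57 ± 0.35 in the authors' deposited table.

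**Figure D3:**
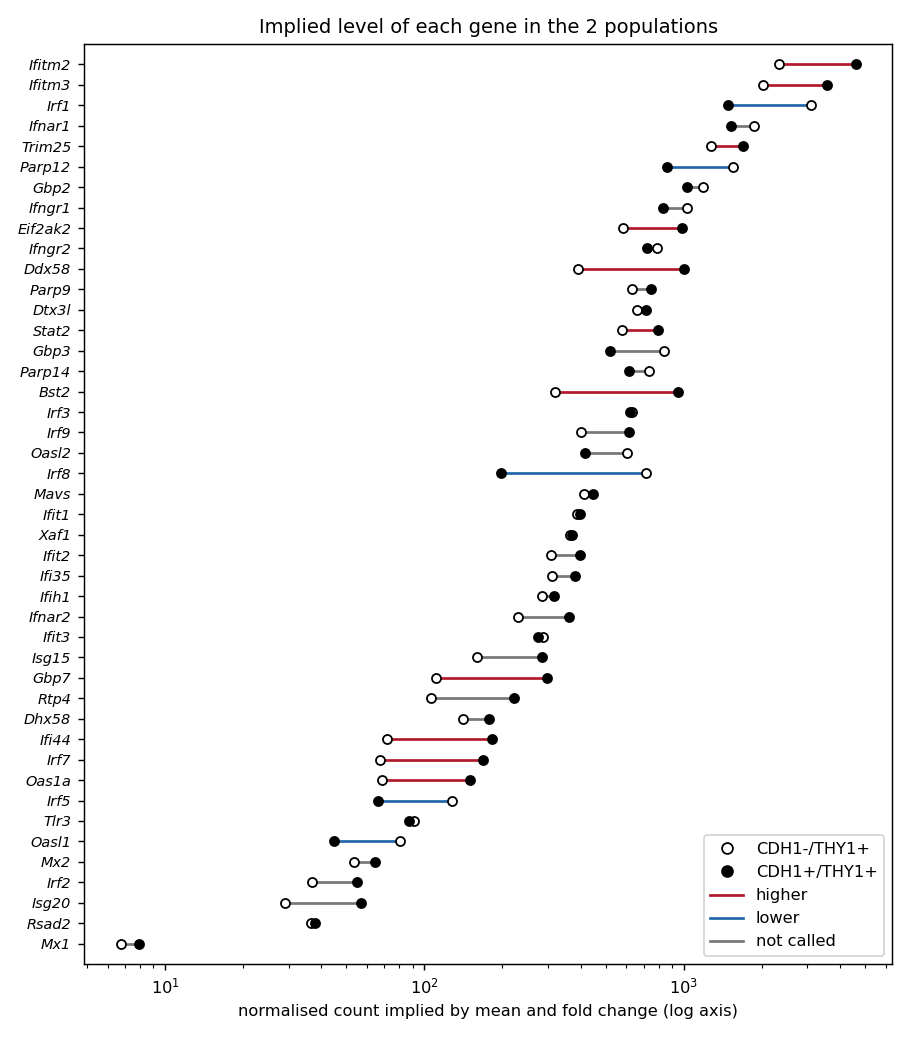
Normalised counts implied for CDH1-/THY1+ (open points) and CDH1+/THY1+ cells (filled points) on a log axis, with 1 line per gene, ordered by mean count and coloured by call. Ifitm2, at 2334 and 4603, is at the top, Mx1, at 6.75 and 7.97, is at the bottom, and Irf8 has the widest gap.

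Of the 27 effectors with a row, 8 were called higher and 2 lower, 37.0% in all against 33.5% of all genes. Bst2 encodes tetherin, which holds budding virus particles at the cell surface. Its implied level was 319 in CDH1-/THY1+ and 952 in CDH1+/THY1+ cells, a log2 fold change of 1.58 ± 0.18 in the authors' deposited table (adjusted p = 3.33e-16). The 95% interval of its fold ran from 2.33 to 3.82. Eif2ak2, the kinase PKR that stops translation on double-stranded RNA, had 583 and 987, and 0.76 ± 0.19 (adjusted p = 0.000331) in the authors' deposited table. Oas1a, an oligoadenylate synthetase that activates RNase L, had 68.5 and 150, and 1.13 ± 0.30 (adjusted p = 0.000832) in the authors' deposited table. Reads of Oas1 paralogs could have been split between genes, so the value of Oas1a is uncertain in that respect.

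The membrane proteins IFITM2 and IFITM3 block virus entry, and Ifitm3 is also known from early germ cells. Per kilobase of exon, Ifitm2 and Ifitm3 were the 2 most abundant of the 44 genes, with mean normalised counts of 5296 and 4121 per kilobase, higher than 99.5% and 99.3% of all rows. Ifitm2 had implied counts of 2334 and 4603 and 0.98 ± 0.13 (adjusted p = 7.82e-12), and Ifitm3 had 2017 and 3571 and 0.82 ± 0.16 (adjusted p = 1.97e-06), in the authors' deposited table. These 2 genes resemble each other in sequence and lie 53.6 kilobases apart on chromosome 7, so some reads could have been assigned to either. Ifitm2 also shares 40.9% of its exon bases with another gene on the same strand, so its level is uncertain in that respect. The next member by level per kilobase was Bst2 with 704, followed by Irf1 with 576 and Gbp2 with 442, and the lowest was Mx1 with 1.94. The spread over samples behind this order is unknown.

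Neighbouring guanylate-binding protein genes, which encode GTPases that attack the vacuoles of intracellular microbes, did not move as a block. Gbp7 had 110 and 297 and 1.43 ± 0.37 (adjusted p = 0.000740) in the authors' deposited table. Gbp3, 9.88 kilobases away, had 837 and 520 and was not called at -0.69 ± 0.36 in the authors' deposited table (adjusted p = 0.121). Gbp2, the next of the row, had 1192 and 1030 and -0.21 ± 0.30 in the authors' deposited table. The 95% interval of the fold was 1.62 to 4.45 for Gbp7 and 0.383 to 1.01 for Gbp3, but the difference between them was not tested.

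Ifi44, an interferon-inducible gene, had levels of 71.8 and 182 and 1.34 ± 0.48 (adjusted p = 0.0179) in the authors' deposited table. That call ended under the Benjamini-Yekutieli adjustment (adjusted p = 0.237). Trim25, the ubiquitin ligase that helps to activate RIG-I, had 1274 and 1694 and 0.41 ± 0.17 (adjusted p = 0.0443) in the authors' deposited table. It was the call closest to the threshold and ended when the fold changes were recentred on the median of abundant genes (adjusted p = 0.0701). Parp12, an ADP-ribosyltransferase with antiviral activity, was lower, with 1545 and 862 and -0.84 ± 0.24 in the authors' deposited table (adjusted p = 0.00241). Oasl1, which restrains translation of Irf7, was lower, with 80.4 and 44.7 and -0.85 ± 0.33 in the authors' deposited table (adjusted p = 0.0311). With the Benjamini-Yekutieli adjustment its call ended (adjusted p = 0.407). Oasl2, its neighbour on chromosome 5, was not called at -0.54 ± 0.31 in the authors' deposited table.

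Several genes that are classical readouts of interferon were not called. Ifit1 had levels of 387 in CDH1-/THY1+ and 397 in CDH1+/THY1+ cells and 0.04 ± 0.23 in the authors' deposited table, with a 95% interval of the fold from 0.754 to 1.40. Ifit3 had 286 and 275 and -0.05 ± 0.25, and Ifit2 had 307 and 398 and 0.37 ± 0.23, in the authors' deposited table. These 3 genes encode proteins that bind viral RNA, and they lie together on chromosome 19. Isg15, a ubiquitin-like modifier, had 159 and 283 and 0.84 ± 0.39 (adjusted p = 0.0811), Rtp4 had 106 and 222 and 1.07 ± 0.47 (adjusted p = 0.0597), and the exonuclease gene Isg20 had 29.1 and 57.2 and 0.97 ± 0.50 (adjusted p = 0.119) in the authors' deposited table. Intervals of the fold for Isg15 and Rtp4, 1.05 to 3.03 and 1.11 to 3.97, are wide, and that for Ifit1 is narrower. Parp9, its partner Dtx3l and Parp14, which lie close together on chromosome 16, had 0.25 ± 0.25, 0.12 ± 0.21 and -0.26 ± 0.35 in the authors' deposited table. The apoptosis-related gene Xaf1 and Ifi35 had 0.03 ± 0.24 and 0.29 ± 0.22 in the authors' deposited table. Mx1, Mx2 and Rsad2, antiviral genes with mean counts of 7.36, 58.9 and 37.3, had values of 0.24 ± 0.58, 0.27 ± 0.41 and 0.05 ± 0.40 in the authors' deposited table.

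The standard errors of these genes were large for their abundance. Each was ranked among the 200 genes nearest in mean count, so that a percentile of 50 is typical. The median percentile of the 44 genes was 75.2, and 15 of them (34.1%) lay above the 90th percentile, against 9.55% of all genes with a p-value. Gbp3 was at 99.5, Parp14 and Rtp4 were at 99, Gbp2 at 97.5, and Irf7 and Ifi44 at 96. In contrast Mavs was at 2.5, Ifitm2 at 20, Ifngr1 at 21.5 and Stat2 at 35. At a given mean count, a larger standard error of this test means a larger fitted spread of the libraries around the authors' model. The formula of that model, and so whether it held a term for the culture, is not stated in the sources. Fibroblast markers had a median percentile of 94 and the spermatogonial markers one of 88.5, and their relation to the values of the 44 genes was not tested.

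**Figure D4:**
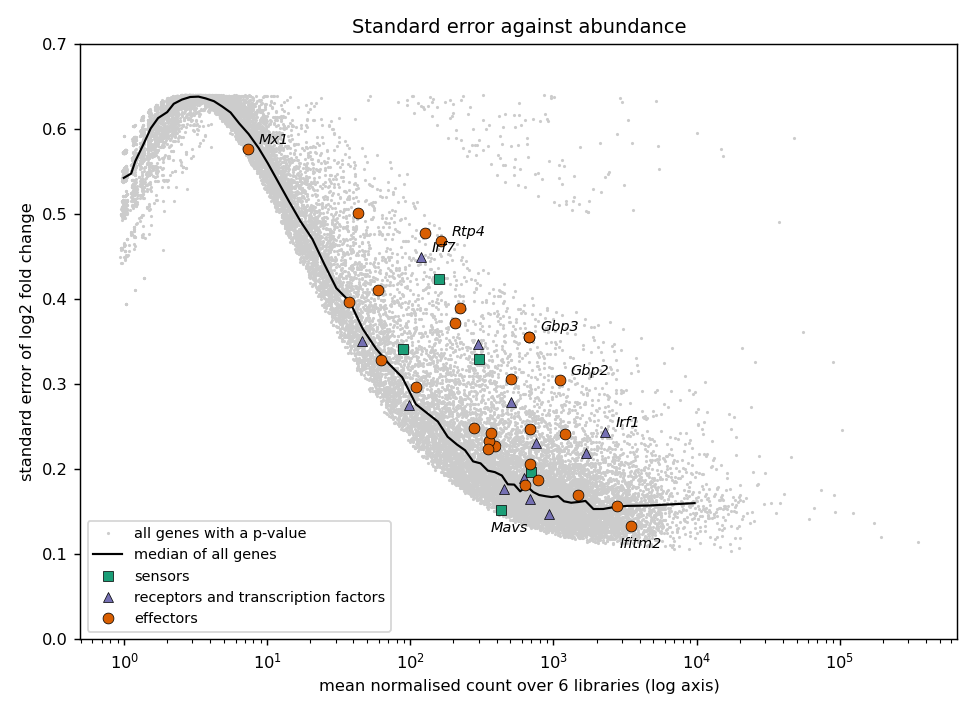
Standard error of the log2 fold change against mean normalised count on a log axis, for all genes with a p-value (grey, with their running median as a line) and for the 44 genes by role. Most of the 44 genes lie above the line, Gbp3 and Rtp4 far above it, while Mavs and Ifitm2 lie below it.

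Other genes of the pathway were taken from lists of 132 symbols, some of them second names of 1 gene. Of these, 107 had a row and 101 an adjusted p-value. Of those, 26 were called higher and 8 lower in the authors' deposited table, 33.7% in all, close to the 33.5% of all genes. Of 16 interferon genes, only Ifnz had a row, with a mean count of 1.18 in the authors' deposited table, and the others were not analysed here. Of 7 receptor kinase and STAT genes, 0 were called higher and 2 lower, 28.6% in all against 33.5% of all genes. In the authors' deposited table these were Jak1, at -0.53 ± 0.18 (adjusted p = 0.0126), and Stat3, at -0.47 ± 0.20 (adjusted p = 0.0491). Of 15 negative regulators with a row, 4 were higher and 1 was lower, 33.3% in all against 33.5% of all genes. Higher were the SUMO ligase gene Pias3 at 1.13 ± 0.18, the phosphatase gene Ptpn6 at 1.76 ± 0.32 and Rnf125, a ligase that marks RIG-I for degradation, at 1.09 ± 0.32, in the authors' deposited table. Samhd1, which encodes a nucleotide hydrolase, was lower at -0.74 ± 0.16 in the authors' deposited table.

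Of 24 other sensing and adaptor genes, 4 were higher and 3 lower, 29.2% in all against 33.5% of all genes. The helicase gene Znfx1 was lower, at -1.17 ± 0.15 in the authors' deposited table (adjusted p = 1.35e-13). The ligase gene Traf6 was 2.18-fold higher (adjusted p = 4.18e-05), and Rnf135, a ligase acting on RIG-I, was higher at 0.95 ± 0.26, in the authors' deposited table. Of 55 other effector genes with an adjusted p-value, 18 were higher and 2 lower, with a median of 0.55. The share called, 36.4%, lies near that of all genes, of which 17.1% were higher and 16.4% lower. The antiviral zinc finger gene Zc3hav1 was higher at 1.41 ± 0.15 (adjusted p = 3.29e-18) and the cytidine deaminase gene Apobec3 at 2.07 ± 0.25 (adjusted p = 2.49e-14) in the authors' deposited table. Pml, which organises nuclear bodies, was higher at 1.81 ± 0.22 (adjusted p = 4.97e-14) and Tor3a at 0.82 ± 0.16 in the authors' deposited table. Of 5 relatives of Oas1a with a row in that list, picked after their values were seen, Oas2 and Oas3 were higher, at 1.65 ± 0.50 and 1.58 ± 0.41 in the authors' deposited table. Oas1b, Oas1c and Oas1g were not called, at 0.37 ± 0.46, -0.27 ± 0.31 and 1.04 ± 0.51 in the authors' deposited table.

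**Figure D5:**
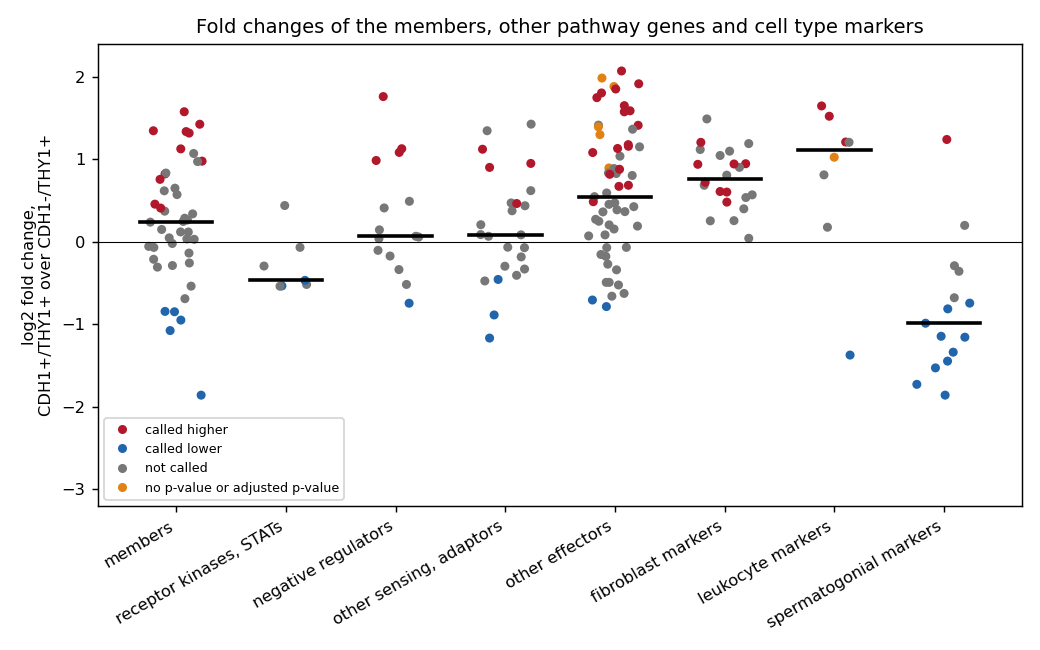
Log2 fold change of each gene in the described set, in 4 lists of other pathway genes and in 3 lists of cell type markers, with a black line at the median of the genes with a p-value. Other effectors (median 0.55) and fibroblast markers (median 0.77) lie mostly above 0, receptor kinases and STATs (median -0.47) and spermatogonial markers (median -0.99) mostly below it.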

How the data were processed

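RNA of 6 samples, 3 CDH1+/THY1+ and 3 CDH1-/THY1+, was sequenced from stranded libraries after depletion of ribosomal RNA, per the labels' protocols. DESeq2 1.12.3 with R 3.3.1 is named in the submitters' processing notes, as are the trimmer Trimmomatic 0.32, the aligner TopHat2 2.1.1 and the build GRCm38.p4. For counting, the notes name featureCounts and Subread 1.5.0-p3. The model formula, annotation release and counting settings are not given in the sources used here.

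The table held 22432 rows. Per the file headers, the authors deposited a mean normalised count, which is a signal over all 6 libraries, a log2 fold change with its standard error, a Wald statistic as a score, a p-value and an adjusted p-value. The statistic equalled the fold change over its standard error to within 2e-07. The largest standard error was 0.639, as with fold changes shrunken towards 0, which would understate changes of scarce genes. Adjusted p-values were present for 19211 rows. The number of tests that makes each adjusted p a whole rank was 19743, so 532 tested genes were not analysed here. Depth per sample is unknown, and the mean counts of all rows sum to 16900379. The 3 cultures differ in age or strain in the labels, and each gave 1 sample of both populations.

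Symbols, positions and exon lengths came from GENCODE M21 (GRCm38), and 22317 rows had a symbol. Implied levels in the populations assume equal groups: they average to the mean count and stand in the ratio of the fold change. Intervals are the fold change ± 1.96 standard errors. Of the 44 genes, 8 share exon bases with another gene that has a row. In addition Ifitm2, Rtp4 and Gbp7 share 40.9%, 13.9% and 11.3% of their exon bases with genes on the same strand that were not analysed here. How reads on shared bases were counted is not given in the sources used here. The members and lists were chosen with earlier results of these data known. Every gene that was called, had a mean count of at least 100 or a statistic of at least 1.5 in size was to be named, and from each other pathway list the 4 called genes with the largest statistics, and of each marker list the 3 most abundant; 1 gene that this rule names is not reported here. The adjustments and the percentile were tested on simulated data. Alternatives were an adjusted p under 0.01, the Benjamini-Yekutieli and Benjamini-Hochberg adjustments over all 22330 rows with a p-value, a mean count of at least 50, recentring on rows with a mean count of at least 100, and a minimum of 2-fold. Python 3.11.15, pandas 2.3.3 and scipy 1.17.1 were used.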

Additional observations from a re-analysis of the deposited data

How the results depend on the processing

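Called genes among the 44 were 16 as deposited and 11 to 17 under 5 of the 6 alternatives. With a minimum of 2-fold, 8 were called. The share called was 36.4% against 33.5% of all genes as deposited, 25% against 23.0% under an adjusted p under 0.01, 25% against 16.3% with Benjamini-Yekutieli and 34.1% against 27.6% with Benjamini-Hochberg over all rows. It was 34.1% against 32.9% after recentring and 18.2% against 14.0% with the minimum of 2-fold, but below that of all genes, 42.5% against 46.1%, at a mean count of at least 50. Receptor and transcription factor calls fell from 5 to 3 under an adjusted p under 0.01, the Benjamini-Yekutieli adjustment and the minimum of 2-fold, and under the first 2 of these 0 were higher. Effector calls fell from 10 to 4 with a minimum of 2-fold. Other pathway calls fell from 34 to 18 with the Benjamini-Yekutieli adjustment and to 18 with a minimum of 2-fold. The construction of these alternatives is stricter. Of the 44 genes, 0 changed direction under the alternatives, but this is no check of direction. Only recentring altered the fold changes, by subtracting 0.0315 from each, and the other alternatives left them as they were. The median log2 fold change, 0.24, was 0.21 after recentring and 0.20 where the mean count was 50 or more. Of 16 calls, 11 held under every alternative without a minimum fold, while Irf7, Stat2, Ifi44, Oasl1 and Trim25 did not. With a mean count of at least 50, Rtp4 was also called (adjusted p = 0.0479). No paired analysis was possible because the table holds no value per library, and for the same reason no library could be left out. Depth per library is unknown, so what it limits could not be assessed.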

Other observations

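Among other interferon-inducible effectors, 5 genes had a mean count but no p-value in the authors' deposited table, and they were picked out after their values were seen. These were the guanylate-binding gene Gbp9, Ifi203 of the HIN-200 family, the restriction factor gene Trim30a, the Schlafen gene Slfn8 and the immunity-related GTPase gene Tgtp2. Their mean normalised counts were 137, 185, 117, 123 and 48.4. The fold changes in the authors' deposited table were 1.88 ± 0.64, 0.90 ± 0.60, 1.99 ± 0.64, 1.40 ± 0.62 and 1.30 ± 0.64, all above 0, with standard errors at or near the largest of the table. They make up 8.33% of the 60 effectors of that list with a row, while 0.455% of all rows lack a p-value, 98 of those 102 with a fold change above 0. No cause was tested.

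Usp18, which removes ISG15 from proteins and damps signalling at IFNAR2, was called higher in the authors' deposited table, at 0.99 ± 0.32 (adjusted p = 0.00937). It was named after its value was seen. Tmem173, which encodes the DNA-sensing adaptor STING, was not called at 1.35 ± 0.60 (adjusted p = 0.0679 per the authors' deposited table). Cgas, the enzyme upstream of it, had -0.33 ± 0.36 in the authors' deposited table.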
